A study of Mus musculus with 8 samples.

Results

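The 7 genes described here encode the Mef2 transcription factors *Mef2a*, *Mef2c* and *Mef2d* and the class IIa histone deacetylases *Hdac4*, *Hdac5*, *Hdac7* and *Hdac9*. They were found as the rows of the deposited table whose gene name was 1 of these 7, among 47643 genes, and all 7 were among the 14229 genes tested. They were measured in quadriceps muscle of C57BL/6 mice by RNA sequencing, in 4 *Nup210*+/+ and 4 *Nup210*-/- libraries. C57BL/6 is the strain in the labels, and the methods of the study name C57BL/6J as the strain of backcrossing. Nup210 is a transmembrane nucleoporin, and the *Nup210*-/- line was made by recombining loxP-flanked exon 2 with an *Hprt*-driven Cre, so the deletion was present throughout the body and not in muscle alone. No agent was given to either genotype in the labels, and the age and sex of these mice are not given in the sources used here. The methods of the study give 4 mice of each genotype as the source of the RNA. The labels number the replicates but do not name the animals, and p-values measure the spread between these libraries.

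Mef2 proteins bind an A/T-rich DNA element and activate contractile, metabolic and fiber type genes in muscle. Class IIa deacetylases bind Mef2 in the nucleus and repress it. Calcium-dependent and other kinases phosphorylate the deacetylases, which are then held by 14-3-3 proteins and exported to the cytoplasm, so much of this control acts on protein location, which mRNA levels do not show. Nup210 has been studied together with Mef2C in cultured muscle cells and in zebrafish. For this muscle, the study placed Mef2C high among its predicted upstream regulators. It found few altered Mef2C targets, most of them immune genes, and no effect on structural targets known from cultured cells. The comparison of genotypes here asks whether the mRNAs of the family and of its repressors differed without Nup210.

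Values are TPM, a share of the transcripts of a library, which divide the read estimate of each gene by transcript length, so that levels can be set side by side between genes within a library. Scaled TPM are TPM divided in each library by the median ratio to the geometric mean over 15225 genes, a factor of 0.936 to 1.12. Fold changes are differences of mean log2(scaled TPM + 1), *Nup210*-/- minus *Nup210*+/+, from limma with Benjamini-Hochberg adjustment over the 14229 genes, given with their standard error (SE). An exact permutation test (two-sided, 70 labelings of the libraries, smallest possible p 0.0286) was run for each member as well. *Nup210* mRNA, the targeted gene, was at 9.54, 10.79, 11.93 and 8.81 TPM in the libraries labelled *Nup210*-/- and at 5.71, 10.11, 9.19 and 6.71 TPM in those labelled *Nup210*+/+. It was thus not lower in the former, the gene-level values do not report on exon 2, and every direction below rests on the labels. *Pom121*, the transmembrane nucleoporin that the study discusses beside Mef2C, had a log2 fold change of -0.06 (limma adjusted p = 0.805), at 4.36 to 5.87 TPM against 4.69 to 6.39 TPM. Skeletal muscle fiber markers were present in all libraries, with the 8 markers summing to 84240 to 98060 TPM. *Nup210*+/+ replicate 2 stood apart in the 6 granulocyte precursor markers, which summed to 381.7 TPM there and to 0.31 to 2.12 TPM in the other libraries, so values without it are given where they differ. *Nup210*+/+ replicate 4 stood apart in the members themselves: on TPM it was the lowest of the 8 libraries for 6 of the 7, all but *Hdac7*, and its class IIa deacetylases summed to 43.08 TPM against 54.77 to 60.05 TPM elsewhere. On scaled values it was the lowest *Nup210*+/+ library for 3 members and the highest for 1.

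*Mef2c* lies at chr13:83504034-83667080 on the plus strand of GRCm38, *Mef2d* at chr3:88142372-88172086 on the plus strand and *Mef2a* at chr7:67231163-67372858 on the minus strand. On the minus strand are also *Hdac5* (chr11:102194432-102230166), *Hdac4* (chr1:91928779-92195699), *Hdac7* (chr15:97792664-97844502) and *Hdac9* (chr12:34047580-34917095). Exons of *Mef2a*, *Mef2d*, *Hdac4* and *Hdac7* overlap those of a gene on the opposite strand (*Lysmd4*, *1700113A16Rik*, *Gm26720* and *Slc48a1*). The microRNA gene *Mir8101* overlaps *Hdac5* exons on the same strand. The libraries were directional, but the sources used here do not say whether the estimates used the strand. The deposited *Hdac9* value covers only part of the gene. It was computed from 1 transcript model, Hdac9-201, of the 10 annotated in GENCODE M21. That model has 12 exons between 34371497 and 34528874 and 588 codons, whereas the longest coding model, Hdac9-204, has 25 exons, reaches 34052301 and has 1067 codons. The downstream exons missing from Hdac9-201 lie toward the C terminus, where class IIa deacetylases carry their deacetylase domain. Reads from those exons are therefore not counted in the *Hdac9* TPM below. For *Mef2a*, *Mef2c*, *Mef2d* and *Hdac5* the table held all annotated transcripts (12, 31, 7 and 20), for *Hdac4* it held 10 of 12 and for *Hdac7* 12 of 13.

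Mef2 factors are known to regulate their own genes, so the promoters of the members were searched on both strands for the MEF2 consensus, an A/T-rich element with a symmetric center. The 13 member promoters in the RefSeq table (GRCm38.p6, 250 bases before to 50 after each start) held a match for 2 of the 7 genes, *Mef2a* and *Hdac5*. Of all 32851 promoters in that table, 1047 held one, or 3.19%. Of the 19 textbook Mef2 target genes with a promoter, 5 held a match in any of their promoters. The member and target counts are by gene over all promoters of the gene. The 3.19% is by promoter, so these shares are not directly comparable. The *Mef2a* and *Hdac5* promoters are shown because they are those of the members in which the element occurs, with the match in capitals. In *Mef2a* (chr7:67372809-67373108, minus strand) the match begins at position -2 from the start, and in *Hdac5* (chr11:102230123-102230422, minus strand) at position -20. A match describes these letters and says nothing of binding.
Mef2a promoter: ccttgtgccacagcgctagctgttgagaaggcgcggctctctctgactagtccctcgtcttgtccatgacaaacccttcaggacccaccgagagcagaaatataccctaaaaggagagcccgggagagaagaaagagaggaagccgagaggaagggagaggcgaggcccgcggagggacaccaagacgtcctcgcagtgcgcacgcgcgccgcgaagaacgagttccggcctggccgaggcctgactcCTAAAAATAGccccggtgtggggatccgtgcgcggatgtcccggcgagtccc
Hdac5 promoter: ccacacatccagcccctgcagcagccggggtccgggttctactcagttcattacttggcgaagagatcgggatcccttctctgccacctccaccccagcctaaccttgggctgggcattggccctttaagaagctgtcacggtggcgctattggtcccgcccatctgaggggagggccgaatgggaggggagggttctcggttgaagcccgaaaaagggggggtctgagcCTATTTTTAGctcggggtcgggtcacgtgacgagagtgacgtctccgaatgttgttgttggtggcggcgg

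The 7 mRNAs had the same order of level in all 8 libraries. From the highest to the lowest this was *Mef2c*, *Mef2d*, *Mef2a*, *Hdac5*, *Hdac4*, *Hdac7* and *Hdac9*, and the range of each gene over the libraries ended above the start of the next, the closest pair being *Hdac4*, with 9.15 TPM as its lowest value, and *Hdac7*, with 9.10 TPM as its highest. *Mef2c* was the main Mef2 mRNA of this muscle, at 207 to 244 TPM and at the 97.1th percentile of the genes tested. Its mean over the 8 libraries was 3.02 times that of *Mef2d*, which in turn was 1.36 times that of *Mef2a*. *Hdac5*, at 24.68 to 36.62 TPM, led the deacetylases and was 2.77 times as high as *Hdac4*. *Hdac4* was 1.59 times as high as *Hdac7*, and *Hdac7* 2.05 times as high as *Hdac9*, which was at the 34.0th percentile with 1.96 to 4.33 TPM. The fourth Mef2 gene of the mouse, *Mef2b*, was listed at 0 in the 4 *Nup210*+/+ libraries and at 0, 0.08, 0.09 and 0.3 TPM in the *Nup210*-/- libraries, too low to be tested.

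**Figure D1:**
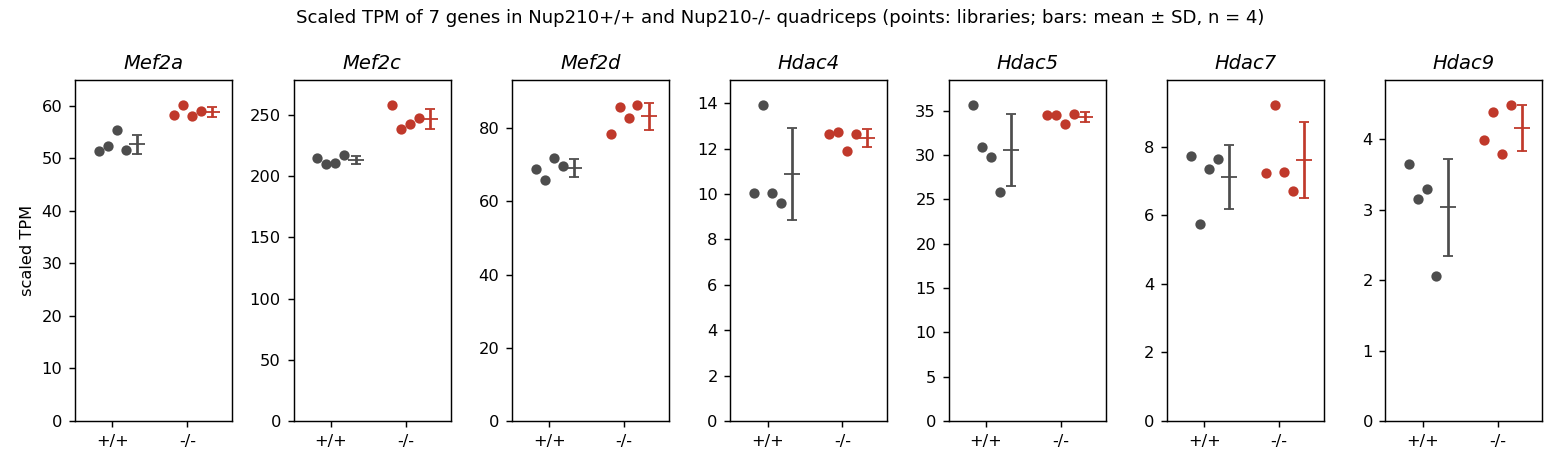
Scaled TPM of the 7 genes by genotype, with 1 point for each library in the order of replicates 1 to 4, and the mean ± SD beside the points (n = 4). For *Mef2a*, *Mef2c*, *Mef2d* and *Hdac9* every *Nup210*-/- library was above every *Nup210*+/+ library, while the ranges of *Hdac4*, *Hdac5* and *Hdac7* overlapped.

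No member passed an adjusted p of 0.05 (limma, Benjamini-Hochberg), a threshold that 16 of all genes tested, or 0.112%, passed. All 7 estimates were above 0, and 4 of the 7, the 3 Mef2 genes and *Hdac9*, were higher in *Nup210*-/- at an unadjusted p of 0.05 from limma. This count was 4, of the same genes, without *Nup210*+/+ replicate 4. It was 5 without *Nup210*+/+ replicate 1, with *Hdac5* added, 5 without *Nup210*+/+ replicate 2, with *Hdac4* added, and 3 without *Nup210*-/- replicate 2 or replicate 4, with *Hdac9* lost. It was 1 (*Mef2d*) with TPM as deposited and 0 after scaling to fiber markers, an alternative added after the data were seen. Among all genes tested 7.0% were higher and 7.18% lower at that level. The same 4 genes did not overlap between genotypes on scaled values, which 4.78% of all genes tested did in this direction. The median log2 fold change was 0.21 over the Mef2 genes, 0.18 over the deacetylases and -0.01 over all genes tested. The 7 genes were chosen with results of these data known, and they share libraries and cells, so they are not 7 separate observations.

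*Mef2c*, which is required for the integrity of skeletal muscle fibers, was at 244.22, 235.48, 243.54 and 231.33 TPM in *Nup210*-/- replicates 1 to 4. In *Nup210*+/+ replicates 1 to 4 it was at 220.82, 217.44, 236.54 and 207.05 TPM. On TPM only *Nup210*+/+ replicate 3 reached into the *Nup210*-/- range. On scaled values, 247 ± 8.44 against 213 ± 3.38 (SD, n = 4), the genotypes separated, with 238.6 as the lowest *Nup210*-/- library and 217.0 as the highest *Nup210*+/+ library. The log2 fold change was 0.21 (SE 0.0480, 95% interval 0.10 to 0.32, limma adjusted p = 0.126). By exact permutation p was 0.0286 on scaled values and 0.0857 on TPM.

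*Mef2d* had the largest estimate of the 3 Mef2 genes. Its levels were 74.09, 84.54, 83.07 and 80.80 TPM in *Nup210*-/- and 70.73, 68.24, 80.60 and 66.49 TPM in *Nup210*+/+. As for *Mef2c*, replicate 3 was the highest *Nup210*+/+ library on TPM and was below all *Nup210*-/- libraries once scaled, where the means were 83.3 ± 3.65 and 69.0 ± 2.45 (SD, n = 4). Its log2 fold change was 0.27 (SE 0.0548, 95% interval 0.14 to 0.39, limma adjusted p = 0.111). The exact permutation p was 0.0286 on scaled values and 0.0571 on TPM.

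*Mef2a*, a Mef2 gene with roles in muscle regeneration, was at 55.04, 59.31, 58.24 and 55.19 TPM in *Nup210*-/- and at 52.88, 54.12, 62.10 and 49.12 TPM in *Nup210*+/+. The highest TPM of all 8 libraries was thus in *Nup210*+/+ replicate 3, the library with the largest scaling factor, 1.12. After scaling, that library had 55.3 and the lowest *Nup210*-/- library 58.0, and the means were 58.8 ± 0.954 and 52.6 ± 1.83 (SD, n = 4). Its log2 fold change was 0.16 (SE 0.0498, 95% interval 0.05 to 0.27, limma adjusted p = 0.211). By exact permutation p was 0.0286 on scaled values and 0.486 on TPM, so the separation of *Mef2a* rests on the scaling.

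*Hdac9*, the least abundant of the deacetylases and itself a Mef2 target, had the largest estimate of the 7 genes. It was at 3.78, 4.33, 3.8 and 4.2 TPM in *Nup210*-/- and at 3.75, 3.26, 3.70 and 1.96 TPM in *Nup210*+/+. It was the only member whose genotypes did not overlap on TPM, although the nearest libraries were at 3.75 and 3.78 TPM, and *Nup210*+/+ replicate 4 lay far below the other libraries. Its log2 fold change was 0.37 (SE 0.137, 95% interval 0.06 to 0.68, limma adjusted p = 0.275), with an exact permutation p of 0.0286 on TPM and on scaled values. Without *Nup210*+/+ replicate 4 the log2 fold change was 0.24 (limma adjusted p = 0.241). At this level the pseudocount of 1 understates the change, and the ratio of mean scaled TPM was 1.37.

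*Hdac4* and *Hdac5*, which link motor nerve activity to muscle gene expression, varied more in *Nup210*+/+ than in *Nup210*-/-. *Hdac5* was at 32.65, 34.05, 33.56 and 32.43 TPM in *Nup210*-/- and at 36.62, 32.00, 33.42 and 24.68 TPM in *Nup210*+/+. The highest and the lowest of the 8 values were both in *Nup210*+/+, and the SD was 0.763 against 5.05 TPM. The log2 fold change of *Hdac5* was 0.17 (SE 0.0891, 95% interval -0.03 to 0.37, limma adjusted p = 0.417), and 0.10 without *Nup210*+/+ replicate 4.

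*Hdac4* was at 11.97, 12.57, 11.94 and 11.85 TPM in *Nup210*-/- and at 10.33, 14.43, 11.28 and 9.15 TPM in *Nup210*+/+. Here the highest library was *Nup210*+/+ replicate 2, the one with granulocyte precursor mRNAs, and the other *Nup210*+/+ libraries were below all *Nup210*-/- libraries. The log2 fold change was 0.19 (SE 0.110, 95% interval -0.06 to 0.44, limma adjusted p = 0.448) with all libraries and 0.31 (limma adjusted p = 0.141) without that replicate. The part of the granulocyte signal in the *Hdac4* value was not tested.

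*Hdac7*, the class IIa deacetylase best known from endothelium and thymocytes, did not separate the genotypes on any scale. Its levels were 6.84, 9.10, 7.30 and 6.29 TPM in *Nup210*-/- and 7.96, 5.95, 8.25 and 7.29 TPM in *Nup210*+/+. Both the highest and the next to lowest of the 8 values were in *Nup210*-/-. The log2 fold change was 0.08 (SE 0.119, 95% interval -0.18 to 0.35, limma adjusted p = 0.780), an interval that includes a rise as large as that of any Mef2 gene. The estimate was -0.0011 without *Nup210*+/+ replicate 2, the lowest library, and -0.00063 without *Nup210*-/- replicate 2, the highest. The 10 endothelial markers, the cell type this gene is best known from, had 5 estimates above and 5 below 0, with a median of 0.02. At an unadjusted p of 0.05 (limma) 2 were higher, *Esam* at 0.41 and *Egfl7* at 0.31, and 1 lower, *Tek* at -0.24. No endothelial marker passed an adjusted p of 0.05. The shares of all genes tested at the unadjusted level were 7.0% higher and 7.18% lower.

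Shares within a family do not depend on the scaling. *Mef2c* made up 63.4 ± 1.41% of the summed Mef2 TPM in *Nup210*-/- and 63.7 ± 0.863% in *Nup210*+/+ (SD, n = 4). *Mef2d* made up 21.4 ± 1.10% and 20.6 ± 0.481%, and *Mef2a* 15.1 ± 0.375% and 15.7 ± 0.533%, with overlapping genotypes for all 3. Of the summed class IIa TPM, *Hdac5* took 58.6 ± 1.25% and 59.0 ± 2.37%, *Hdac4* 21.3 ± 0.376% and 21.2 ± 3.51%, and *Hdac7* 13.0 ± 1.56% and 13.9 ± 2.58%. *Hdac9* was the only member whose share did not overlap, at 6.71 to 7.67% in *Nup210*-/- and 4.55 to 6.53% in *Nup210*+/+. The summed Mef2 TPM was 6.32 to 6.80 times the summed class IIa TPM in *Nup210*-/- and 5.87 to 7.49 times in *Nup210*+/+, so the ratio of the factors to their repressors overlapped between genotypes. Its mean log2 value differed by 0.03, which is below its SD of 0.16 over the *Nup210*+/+ libraries.

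**Figure D2:**
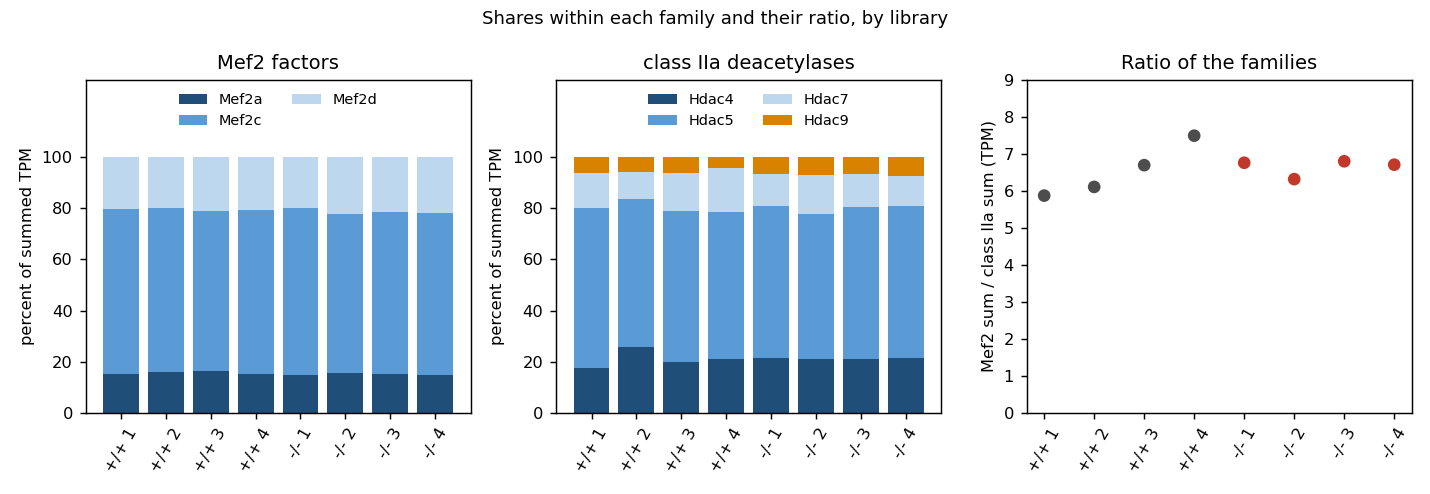
Percent of the summed TPM of each family taken by each gene in each library (left, Mef2 factors, and center, class IIa deacetylases), and the ratio of the 2 sums (right), with *Nup210*+/+ libraries first. *Mef2c* took 62.1 to 65.4% of its family in every library, and the ratio ranged from 5.87 to 7.49 in *Nup210*+/+ and from 6.32 to 6.80 in *Nup210*-/-.

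The size of the differences depended on the reference. With TPM as deposited the log2 fold changes were 0.07 for *Mef2a*, 0.12 for *Mef2c*, 0.17 for *Mef2d*, 0.11 for *Hdac4*, 0.08 for *Hdac5*, 0.0012 for *Hdac7* and 0.29 for *Hdac9*, while the median of all genes tested was -0.08. The 8 fiber markers, which include *Acta1*, *Ckm* and *Myh4*, moved with the members: all 8 had estimates above 0, from 0.11 to 0.30 with a median of 0.20, none passed an adjusted p of 0.05 and 4 had an unadjusted p under 0.05 (limma). At that level 7.0% of all genes tested were higher and 7.18% lower. The summed TPM of the fiber markers, before scaling, was 91220 to 98060 in *Nup210*-/- and 84240 to 90100 in *Nup210*+/+, without overlap. On scaled values only *Acta1* of the 8 did not overlap. The nearest sums were of *Nup210*-/- replicate 2 (scaling factor 0.987) and *Nup210*+/+ replicate 4 (0.954), so their order reverses once scaled. Markers of some other cells had lower estimates: all 7 tested leukocyte markers had estimates below 0 with a median of -0.62 (6 with an unadjusted p under 0.05), and all 5 fibroblast markers with a median of -0.34 (3 with an unadjusted p under 0.05), and none of these passed an adjusted p of 0.05 (limma). The leukocyte markers summed to 117.5 to 134.1 TPM in *Nup210*-/- libraries against 144.3 to 288.9 TPM in *Nup210*+/+ libraries. Of that list *Cd3e* and *Cd79a*, which mark lymphocytes, were at 0.38 TPM or below in every library. Before scaling, the 4 smooth muscle markers summed to 30.95 to 35.39 TPM in *Nup210*-/- and to 38.19 to 48.46 TPM in *Nup210*+/+ libraries, without overlap. The nearest sums were of *Nup210*-/- replicate 4 (scaling factor 0.936) and *Nup210*+/+ replicate 2 (1.036), so their order reverses once scaled. All 3 smooth muscle markers that were tested had estimates below 0 with a median of -0.08. *Acta2*, at -0.41, had an unadjusted p under 0.05 (limma adjusted p = 0.179). It was the only tested smooth muscle marker without overlap on scaled values. The tested adipocyte, Schwann cell and satellite cell markers had medians of -0.11, -0.14 and 0.10, overlapping sums and no unadjusted p under 0.05 (limma), and none passed an adjusted p of 0.05. Muscle is a mixture, and more or fewer cells of a type cannot be told apart from more or less RNA per cell.

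Set against the 8 fiber markers in the same library, the members no longer separated the genotypes. The log2 ratio of *Mef2c* to the markers averaged -4.67 ± 0.038 in *Nup210*-/- libraries and -4.67 ± 0.130 in *Nup210*+/+ libraries (SD, n = 4), and that of *Mef2d* averaged -6.24 ± 0.083 and -6.30 ± 0.167. The differences were -0.051 for *Mef2a* (exact permutation p = 0.657), -0.0019 for *Mef2c* (p = 1.0), 0.058 for *Mef2d* (p = 0.571), -0.036 for *Hdac5* (p = 0.857) and -0.12 for *Hdac7* (p = 0.457). *Hdac4* differed by -0.00032 (exact permutation p = 1.0) and *Hdac9* by 0.27 (p = 0.343), and the genotypes overlapped for all 7. Scaling to the fiber markers moved the median of all genes tested to -0.18, so that relative to this median *Mef2c*, with a limma estimate of -0.0019, was still the higher. A higher level of the members within fibers and a higher share of fiber RNA in the tissue cannot be told apart.

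**Figure D3:**
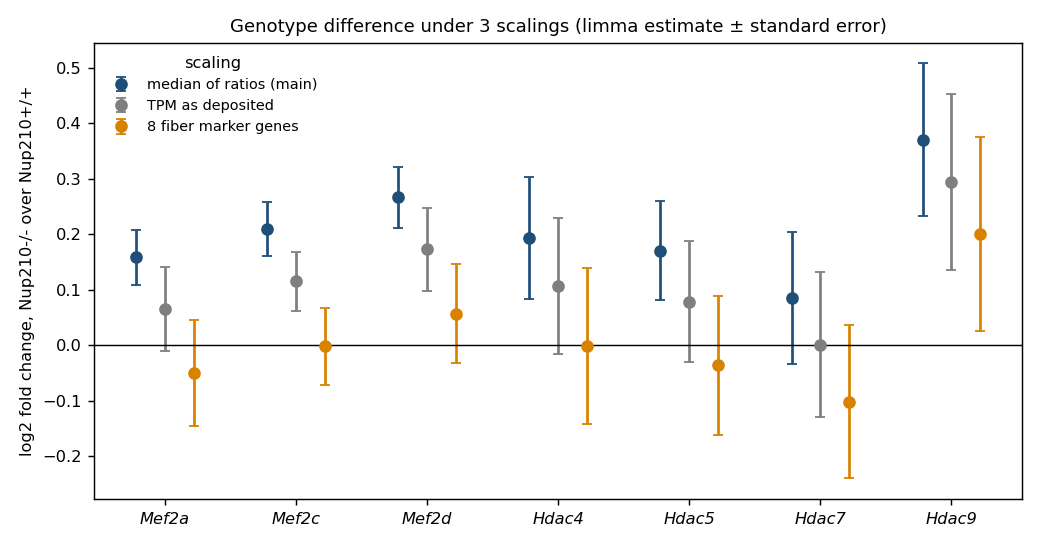
Log2 fold change, *Nup210*-/- over *Nup210*+/+, of each member under 3 scalings, with limma estimates and standard errors (n = 4 for each genotype). All 7 estimates were above 0 with the main scaling and with TPM as deposited, and only *Mef2d* and *Hdac9* were above 0 after scaling to 8 fiber markers, when the median of all genes tested was -0.18.

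The kinases that phosphorylate class IIa deacetylases, calcium/calmodulin-dependent kinases, protein kinase D, salt-inducible, MARK and AMP-activated kinases, included 16 tested genes of 18. None passed an adjusted p of 0.05, and the median was 0.03. At an unadjusted p of 0.05 (limma) 4 were higher and none lower, against 7.0% and 7.18% of all genes tested. *Camk2b*, a subunit of CaMKII, the kinase that docks to Hdac4, was at 59.86 to 64.60 TPM in *Nup210*-/- and 49.62 to 57.25 TPM in *Nup210*+/+, a log2 fold change of 0.33 (SE 0.0869, limma adjusted p = 0.169). On scaled values its genotypes overlapped, with 59.62 in the lowest *Nup210*-/- and 59.99 in the highest *Nup210*+/+ library. *Camk2g* had 0.24 (SE 0.0579, limma adjusted p = 0.152) and *Prkd1*, at 0.37 to 1.85 TPM, -0.41 (limma adjusted p = 0.354). *Camk2n1*, an inhibitor of CaMKII, was at 4.13 to 5.15 TPM in *Nup210*-/- and at 5.62 to 9.63 TPM in *Nup210*+/+, without overlap, with a log2 fold change of -0.47 (SE 0.109, limma adjusted p = 0.132).

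Among the 8 genes of the export step, 7 for 14-3-3 proteins and *Xpo1* for the exportin, none passed an adjusted p of 0.05 (limma). Of these, 1 was higher and 1 lower at an unadjusted p of 0.05, against 7.0% and 7.18% of all genes tested. Of the 8 estimates 2 were above and 6 below 0, with a median of -0.14. *Ywhaq* was at 23.18 to 26.59 TPM in *Nup210*-/- and at 29.34 to 57.78 TPM in *Nup210*+/+, a log2 fold change of -0.60 (SE 0.163, limma adjusted p = 0.179), and *Ywhag* had 0.13 (limma adjusted p = 0.270). The 8 corepressors that Mef2 and the deacetylases recruit had a median log2 fold change of 0.09, and *Tbl1x* had the lowest estimate, -0.18 (limma adjusted p = 0.391). None of the 11 coactivators and partners reached an unadjusted p of 0.05 (limma), and they ranged from -0.40 for *Vgll4* to 0.05 for *Carm1*, with *Vgll2* at -0.24. Their median was -0.12, with 4 estimates above and 7 below 0. Their summed TPM, before scaling, was 181.0 to 211.7 in *Nup210*-/- and 212.3 to 254.6 in *Nup210*+/+, without overlap. On scaled values the genotypes overlapped for each of the 11 genes. The nearest sums were of *Nup210*-/- replicate 3 (scaling factor 1.004) and *Nup210*+/+ replicate 2 (1.036), so their order reverses once scaled. Of 7 MAP kinases of the pathways that activate Mef2, none passed an adjusted p of 0.05 (limma). At an unadjusted p of 0.05, 2 were higher, against 7.0% of all genes tested. *Map2k6*, the activator of p38, had 0.26 (SE 0.0671, limma adjusted p = 0.167) and *Mapk7* had -0.18.

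Histone deacetylases of the other classes include *Hdac3*, which is also among the corepressors above, and the sirtuins. Of the 14 other histone deacetylases and sirtuins, none reached an unadjusted p of 0.05 in limma, 9 estimates were above and 5 below 0, and the median was 0.01. They ranged from -0.27 for *Sirt6* to 0.17 for *Hdac6*, and *Sirt2* had the lowest p, with 0.08 (limma adjusted p = 0.526). The difference between these and the class IIa genes was not tested.

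Of 23 textbook Mef2 target genes of muscle, 1 fell and none rose at an adjusted p of 0.05 (limma). That gene was *Xirp1*, which encodes an actin-binding protein of the muscle attachment sites and is induced by load and injury. It was at 61.57 to 68.68 TPM in *Nup210*-/- and at 110.46 to 148.38 TPM in *Nup210*+/+, a log2 fold change of -0.84 (SE 0.106, limma adjusted p = 0.0490). With any 1 of the 8 libraries left out no gene of these lists passed. The median of the 23 targets was 0.07. At an unadjusted p of 0.05, 6 targets were higher and 1 lower, against 7.0% and 7.18% of all genes tested. The higher ones were *Des*, *Myom1*, *Srpk3*, *Xirp2*, *Smpx* and the member *Hdac9*. *Des*, the muscle intermediate filament, was at 1155 to 1259 TPM against 1058 to 1138 TPM (log2 fold change 0.24, limma adjusted p = 0.192), and *Srpk3*, a kinase whose gene is under direct Mef2 control, had 0.31 (limma adjusted p = 0.210). The estimates of the fiber markers were 0.11 to 0.30, and *Ckm* is in both lists. *Rcan1*, a calcineurin regulator of the calcium pathway that also acts on Mef2, was at 43.87 to 46.64 TPM against 104.11 to 155.72 TPM.

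Hdac4 and Hdac5 act in denervated muscle through *Dach2* and *Myog* on acetylcholine receptor subunits and on ubiquitin ligases of atrophy. Of the 11 genes of this pathway 10 were tested, and none passed an adjusted p of 0.05 (limma). At an unadjusted p of 0.05, 4 were higher, against 7.0% of all genes tested. The median was 0.20, beside 0.20 for the fiber markers. *Fbxo32*, an atrophy ubiquitin ligase, had 0.45 (SE 0.147, limma adjusted p = 0.224) at 88.28 to 116.07 TPM against 57.27 to 104.77 TPM, and *Gadd45a*, which rises on denervation, had 0.32 (SE 0.0839, limma adjusted p = 0.169). *Chrne* and *Trim63* were the others at that level. On scaled values *Fbxo32* and *Trim63* overlapped between genotypes, and *Gadd45a* and *Chrne* did not. *Myog*, the factor of this pathway that Hdac4 controls through *Dach2*, had -0.27 (limma adjusted p = 0.470), at 4.04 to 5.69 TPM against 4.90 to 8.04 TPM. *Chrng*, the fetal receptor subunit, was at 0.28 TPM or below in every library.

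**Figure D4:**
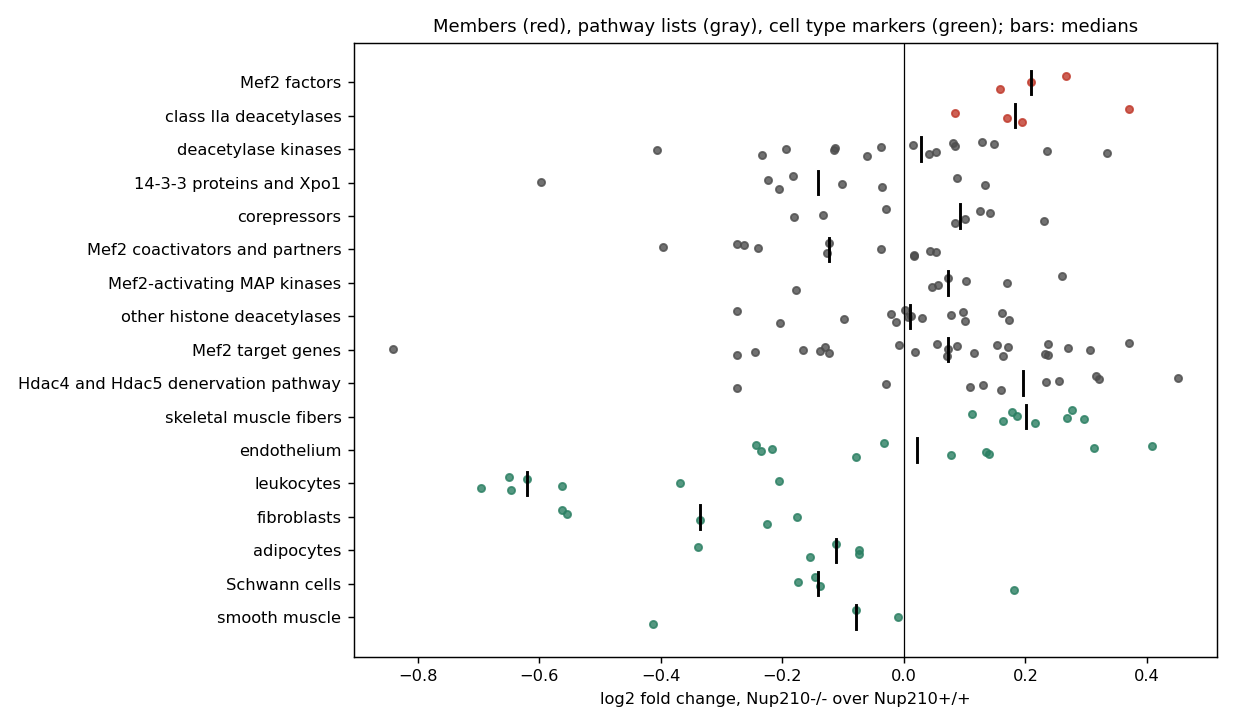
Log2 fold change, *Nup210*-/- over *Nup210*+/+, of each tested gene of the members (red), most pathway lists (gray) and most cell type marker lists (green), with 1 point for each gene and a bar at the median of each list. The medians of the Mef2 genes, 0.21, and of the class IIa deacetylases, 0.18, lay beside that of the fiber markers, 0.20, and *Xirp1*, at -0.84, was the only gene shown that passed an adjusted p of 0.05 (limma).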

How the data were processed

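Polyadenylated RNA of 8 quadriceps samples, 4 for each genotype in the labels, was made into directional libraries and sequenced from one end. Per the submitters' processing notes the authors used cutadapt 2.3, STAR 2.7.0d, mm10 and RSEM 1.3.1, with Ensembl annotations, and deposited TPM for 47643 genes without pooling replicates. The read depth behind the TPM is unknown, so precision rests on the spread between libraries. The authors tested estimated counts with DESeq2, and those counts were not used here.

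TPM were scaled by the median of ratios over 15225 genes and log2(scaled TPM + 1) was taken. Genes whose mean TPM reached 0.5, 14229 in all, were fitted with limma 3.58.1 in R 4.3.3 (lmFit, eBayes with trend), genotype being the single term. The procedure was run on simulated data, in which every change put in was larger than the estimate of any member. It therefore does not bear on differences of the size seen in the members. Named genes were the members, the genes of each list past an adjusted p of 0.05 or otherwise with the lowest p and the highest and lowest estimate, the 2 genes with the most similar pattern to each member, *Nup210*, *Pom121* and *Rcan1*. A few list genes are not reported here. The members of lists named beyond that rule (*Des*, *Srpk3*, the genes counted at an unadjusted p of 0.05, *Chrng* and the cell type markers) were chosen after their values were seen. Members and lists were chosen with earlier results of these data known. The alternatives were other pseudocounts (0.1 and 0.5), filters (any TPM above 0, mean TPM of 0.1 or 1) and scalings, eBayes without the trend or robust, library weights, the replicate number as a block, each library left out and, added after the data were seen, scaling to 8 fiber markers. Annotation was GENCODE M21 and promoters were from RefSeq. Plots were made in Python 3.11.15 with matplotlib 3.10.9.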

Additional observations from a re-analysis of the deposited data

Results flagged for a closer look

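Among 54 groups of 4 values examined (members, family shares and marker sums in each genotype), 5 had a value far from the other 3, where chance gives about 1 in 20, or 2.7. *Hdac4* was at 12.57 TPM in *Nup210*-/- replicate 2 and at 11.85 to 11.97 TPM in the other *Nup210*-/- libraries, a difference smaller than the spread of the *Nup210*+/+ libraries. The share of *Hdac5* in the class IIa TPM was 56.7% in the same library and 59.1 to 59.3% in the others of its genotype. The share of *Mef2c* in the Mef2 TPM was 62.4% in *Nup210*+/+ replicate 3 and 64.0 to 64.2% in the others. In *Nup210*+/+ replicate 2 the granulocyte precursor markers summed to 381.7 TPM against 0.31 to 2.12 TPM in the other *Nup210*+/+ libraries, and the endothelial markers to 130.7 TPM against 152.6 to 155.5 TPM.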

How the results depend on the processing

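No member passed an adjusted p of 0.05 (limma) in any of the 13 alternatives or with any library left out. The lowest adjusted p were 0.0681 for *Mef2d* and 0.0759 for *Mef2c*, both with library weights. The estimates of *Mef2d* and *Hdac9* were above 0 in every alternative. Scaled to 8 fiber markers, the log2 fold changes were -0.050 for *Mef2a*, -0.0019 for *Mef2c*, -0.0022 for *Hdac4*, -0.036 for *Hdac5* and -0.10 for *Hdac7*, below 0 but above the median of all genes tested, -0.18. With single libraries left out, estimates ranged from 0.15 to 0.18 for *Mef2a*, 0.19 to 0.23 for *Mef2c*, 0.25 to 0.30 for *Mef2d*, 0.14 to 0.31 for *Hdac4*, 0.10 to 0.25 for *Hdac5*, -0.0011 to 0.13 for *Hdac7* (-0.0011 without *Nup210*+/+ replicate 2 and -0.00063 without *Nup210*-/- replicate 2) and 0.24 to 0.44 for *Hdac9*, and the log2 ratio of the families from -0.02 to 0.10. The genes called in the whole table, 16, became 1 with any TPM above 0 as the filter, 0 at a mean TPM of 0.1, 27 at a mean TPM of 1, 0 with upper-quartile scaling, 0 without the trend, 84 with library weights, 59 scaled to fiber markers, and 0 to 10 with a library left out. At an unadjusted p of 0.05 these settings with 0 called 2244, 2071 and 1952 genes. The 1 list gene called, *Xirp1*, became 0 with any TPM above 0, a mean TPM of 0.1, upper-quartile scaling, no trend, the replicate block or any library left out. The cause was not tested. Members at an unadjusted p of 0.05, 4, became 2 with TPM rescaled without mitochondrial genes and the 20 highest genes, and 5 with upper-quartile scaling or library weights.

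The replicate numbers are only labels: deviations of libraries with the same number correlated at -0.03, 0.005, 0.02 and 0.09, and 1 of the 4 *Nup210*-/- libraries correlated best with its own number. With the replicate block, 0 genes passed an adjusted p of 0.05 (1850 at an unadjusted p of 0.05), and the estimates of the members were the same, with adjusted p of 0.276 for *Mef2c* and 0.255 for *Mef2d*. Without read counts, the counting error of the low genes, *Hdac9* and *Hdac7*, cannot be given, and with 4 libraries for each genotype the exact test cannot go below 0.0286.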

Other observations

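For each member, the 2 genes with the most similar pattern over the 8 libraries were found among the 8388 tested genes whose mean TPM was 5 or more, by Pearson's r of log2 values. These are descriptions over libraries that share scaling, genotype and tissue makeup, and with so many genes searched over 8 points some high values are to be had. *Mef2c* was closest to *Pip4k2b* (r = 0.986), a phosphoinositide kinase, and *Ube2g1* (r = 0.983), a ubiquitin-conjugating enzyme. *Mef2d* was closest to *Acot2* (r = 0.9745), a mitochondrial acyl-CoA thioesterase, and *Aox1* (r = 0.970), an aldehyde oxidase. *Mef2a* was closest to *Slc25a22* (r = 0.979), a mitochondrial glutamate carrier, and *Ctsd* (r = 0.976), the lysosomal protease cathepsin D.

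*Hdac4* was closest to *Kif2a* (r = 0.9749), a microtubule-depolymerizing kinesin, and *Nup93* (r = 0.974), a scaffold nucleoporin, both of which were also highest in *Nup210*+/+ replicate 2 where *Hdac4* was. *Hdac5* had the least similar nearest genes, *Marf1* (r = 0.933) and *Gpalpp1* (r = 0.918). *Hdac7* was closest to *Dpf2* (r = 0.962), a chromatin remodeling subunit, and *Taok1* (r = 0.951), a protein kinase. *Hdac9* was closest to *Tob2* (r = 0.976), an antiproliferative factor, and *Zbtb38* (r = 0.959), a methyl-CpG binding factor. No member was among the nearest genes of another.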
